A study of Homo sapiens with 8 samples.

Results

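The genes described here were the clustered replication-dependent histone genes, taken as every row of the deposited table whose symbol begins with HIST1H, HIST2H, HIST3H or HIST4H. There were 56 of them among 17166 genes. Of these, 41 belong to the HIST1 cluster on chromosome 6, 11 to HIST2 and 3 to HIST3 on chromosome 1, and 1 to HIST4 on chromosome 12. By product they were 5 linker histone H1 genes, 15 H2A, 13 H2B, 11 H3 and 12 H4 genes. In all 8 libraries 24 of the 56 were above 0, and 14 averaged at least 1 FPKM.

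Core histones H2A, H2B, H3 and H4 form the protein spool that DNA winds around, and H1 binds the DNA that links one spool to the next. Clustered histone genes are transcribed mainly while DNA is being copied, and most of their messenger RNAs end in a short stem-loop held by the protein SLBP, not in a poly(A) tail. Some of these genes also give transcripts that run on past the stem-loop to an ordinary polyadenylation site, a form described in differentiated and in cultured cells.

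The libraries were made from polyA-selected RNA of HCT116, a human colorectal cancer cell line, so that messages ending at the stem-loop are largely left out of the measurement. All cells carried a doxycycline-inducible hairpin against the transcription factor gene HOXB8, of which there were 2, called sh1 and sh2. Each line was grown for 72 hours with 1 ug/ml doxycycline (dox) or without it (no dox), in 2 independent repeats per group, giving 4 dox and 4 no-dox libraries. No library with doxycycline but without a hairpin was included, so the drug and the knockdown were measured together. HOXB8 had 6.54 and 5.74 FPKM in the sh1 dox libraries and 7.39 and 6.41 FPKM in the sh2 dox libraries, against 20.8 and 20.4 FPKM in the sh1 no-dox libraries and 17.3 and 18.4 FPKM in the sh2 no-dox libraries. Its averaged log2 change was -1.43 with an adjusted p of 6.86e-07 (limma), as the labels have it.

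FPKM is a level per transcript length and per mapped fragments of the library, and the read depth behind it is unknown. FPKM columns summed to between 440063 and 446889 over the 8 libraries. A mean of at least 1 FPKM was reached by 11712 genes, which were tested on log2(FPKM + 1) with an adjusted p under 0.05 as the threshold. That scale understates the change of genes at a low level. Of 11 epithelial markers 10 were in the table and 8 averaged at least 1 FPKM, with a summed level of 2720 to 2855 FPKM in dox and 2792 to 3424 FPKM in no-dox libraries. Of 11 markers of blood, vessel and connective tissue cells 8 were in the table, with 8.10 to 10.3 FPKM in dox and 8.20 to 9.51 FPKM in no-dox libraries. Of these COL1A1 alone averaged 7.26 FPKM, and their part in the results was not tested.

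The stem-loop takes the place of a poly(A) tail, which is what polyA selection reads, so its letters are given for 6 members whose annotated transcript contains it. The capitals mark the 16 bases of the stem and loop, and 5 flanking bases stand on each side, read on the sense strand of the GENCODE release 29 transcripts.
HIST3H2A: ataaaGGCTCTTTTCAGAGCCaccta
HIST1H2AC: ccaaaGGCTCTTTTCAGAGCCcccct
HIST1H2AG: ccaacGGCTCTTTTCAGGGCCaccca
HIST1H2BD: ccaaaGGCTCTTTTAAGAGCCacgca
HIST1H3H: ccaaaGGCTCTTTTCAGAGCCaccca
HIST2H4A: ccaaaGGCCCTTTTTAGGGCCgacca

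The histone stem-loop consensus was searched in the protein-coding transcripts of all 56 members and was found in 28 of them. Over all protein-coding genes it occurred in 66 of 19702, or 0.335%. The 16 bases seen most often, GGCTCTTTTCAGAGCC, were shared by 14 members of the H2A, H2B and H3 families. In the H4 family the stem-loop was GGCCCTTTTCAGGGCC in 5 genes and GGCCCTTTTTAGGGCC in 3. HIST1H2AG alone among the members had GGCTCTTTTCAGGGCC. No match means only that these letters were not in the annotated transcript: the transcripts of HIST1H2BK and HIST1H1C, of 381 and 642 bases, held none.

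Most histone genes were close to the lower end of the measured range. Of the 56 members 42, or 75%, averaged less than 1 FPKM, against 31.8% of all 17166 genes. The lowest value above 0 in these 42 members had a median of 0.145 FPKM, and 6 members were listed at 0 in 7 of the 8 libraries. The 3 highest members, HIST1H2BK, HIST3H2A and HIST1H1C, held 40.3% of the summed level. HIST1H2BK, an H2B gene, averaged 11.4 FPKM, HIST3H2A 8.89 FPKM and the linker histone gene HIST1H1C, which encodes H1.2, 8.0 FPKM. Next in order came HIST1H2BD at 5.38 FPKM, HIST1H2AC at 5.05 FPKM and HIST2H2AA3 at 4.32 FPKM. Just above the threshold stood HIST2H4A and HIST2H4B at 1.05 FPKM and HIST1H2AG at 1.41 FPKM, and just below it HIST2H2AC at 0.815 FPKM, HIST1H3E at 0.778 FPKM and HIST1H2BC at 0.730 FPKM. Replication-independent variants such as H2AFZ (H2A.Z), at 564.5 FPKM, and H3F3B (H3.3), at 361.9 FPKM, were far above them.

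Gene copies limited what could be told apart. HIST2H2AA3 and HIST2H2AA4, HIST2H4A and HIST2H4B, and HIST2H3A and HIST2H3C had the same value in every library. In each of the 3 pairs the shorter GENCODE transcript was contained whole in the other, so reads cannot separate the copies and each pair is 1 measurement. The 56 members thus gave 53 distinct sets of values, and the 14 with a mean of at least 1 FPKM gave 12. Coding sequences are also very similar within each family, and how the authors shared reads between similar genes is not given in the sources used here.

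**Figure D1:**
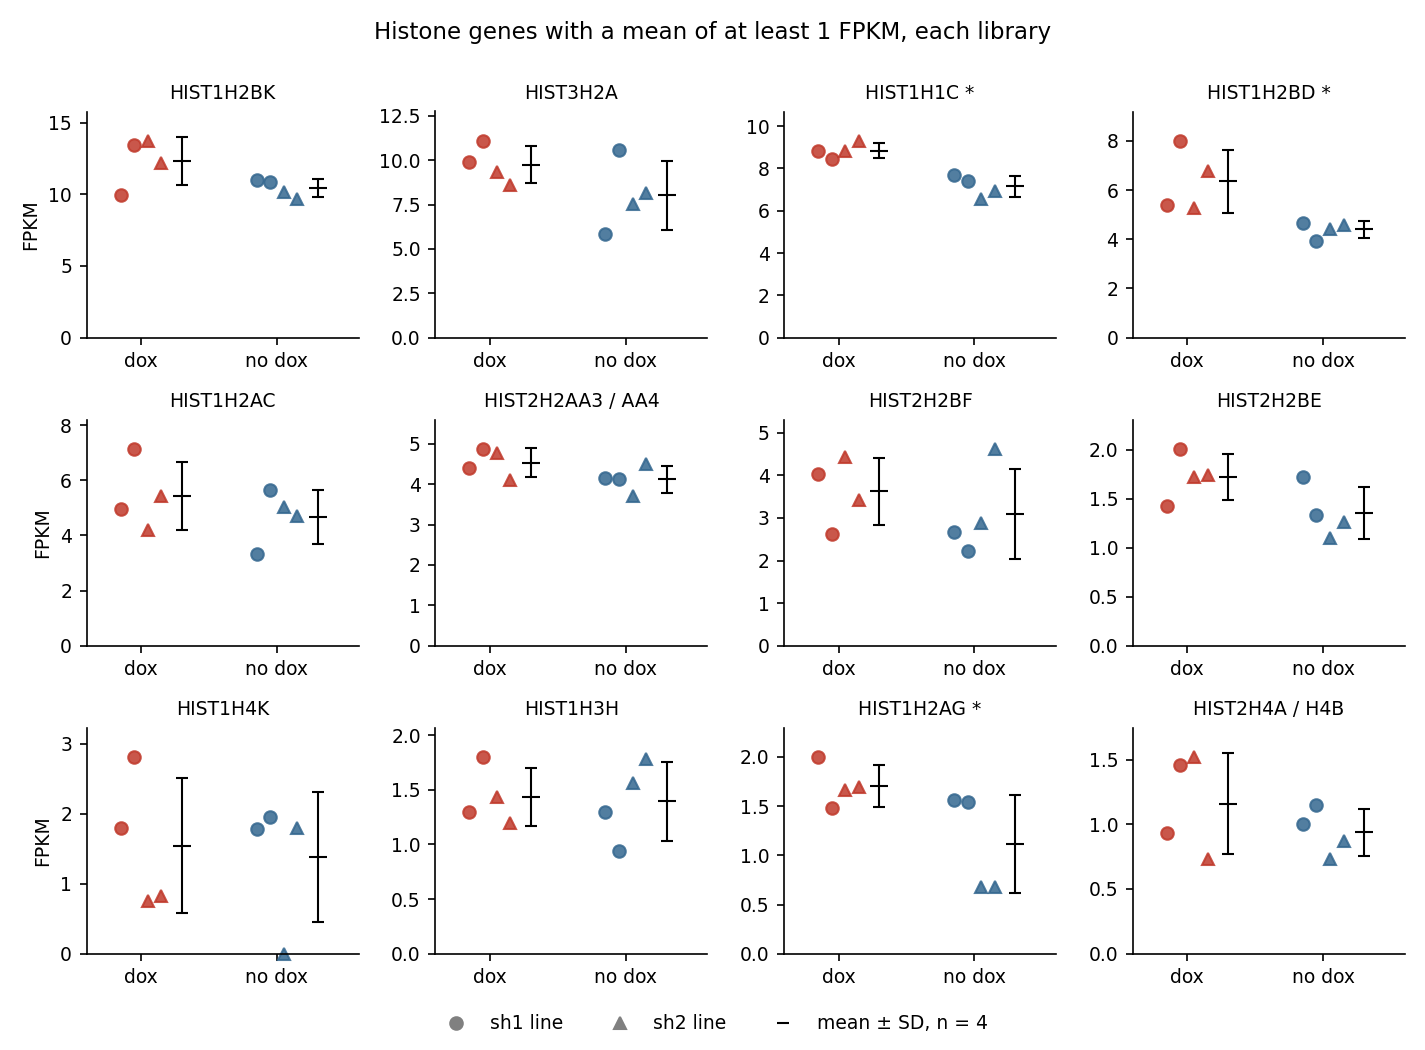
FPKM (linear axis) of the 14 members averaging at least 1 FPKM, dox on the left and no dox on the right of each of 12 panels, with circles for the sh1 line, triangles for the sh2 line, a bar for the mean and SD of 4 libraries, and an asterisk where the averaged dox effect passed the threshold. All 4 dox libraries lie above all 4 no-dox libraries for HIST1H1C and HIST1H2BD, and HIST1H4K is listed at 0 in 1 no-dox library.

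The level was set beside the annotated end of the transcript. In 20 members a transcript ran more than 100 bases past the stem-loop, and 8 of these averaged at least 1 FPKM, with a median of 0.670 FPKM over the 20. In 8 members every transcript with the stem-loop ended within 100 bases of it, with 3 above 1 FPKM and a median of 0.330 FPKM. In 28 members no annotated transcript held the stem-loop, with 3 above 1 FPKM and a median of 0.220 FPKM. HIST1H2AG ran 1761 bases past the stem-loop, HIST2H2BE 1729 bases and HIST1H2AC 1114 bases. The hexamer AATAAA, the usual polyadenylation signal, stood within the last 50 bases of a transcript in 17 members. The search did not ask that it lie past the stem-loop. In HIST1H4J, whose transcript ends 6 bases past the stem-loop, the match is not past it. Of these 17, 8 averaged at least 1 FPKM and 13 were above 0 in all 8 libraries, against 6 and 11 of the 39 members without it. Copies were counted singly here and in the end classes, though each pair is 1 measurement. HIST2H4B stood on the side with AATAAA and HIST2H4A, with the same values, on the side without it. HIST2H2AA3 and HIST2H2AA4, and HIST2H3A and HIST2H3C, were all counted on the side with AATAAA. The median was 0.778 FPKM with AATAAA and 0.224 FPKM without it. Counted by transcript, AATAAA was there in 18 of 67 member transcripts and in 35.5% of all protein-coding transcripts. HIST1H2BK and HIST1H1C stood among the 3 highest members with neither feature in their annotated transcript. Those transcripts, of 381 and 642 bases, are no longer than a coding sequence, as are many others without the stem-loop. Among these are the 312 bases of HIST1H4K and the 411 bases of HIST1H3D. Neither feature could be found past the coding sequence in them, so the classes partly separate genes by whether an end was annotated. Annotated ends partly reflect which transcripts have been sequenced before, and these comparisons are a description with no test.

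**Figure D2:**
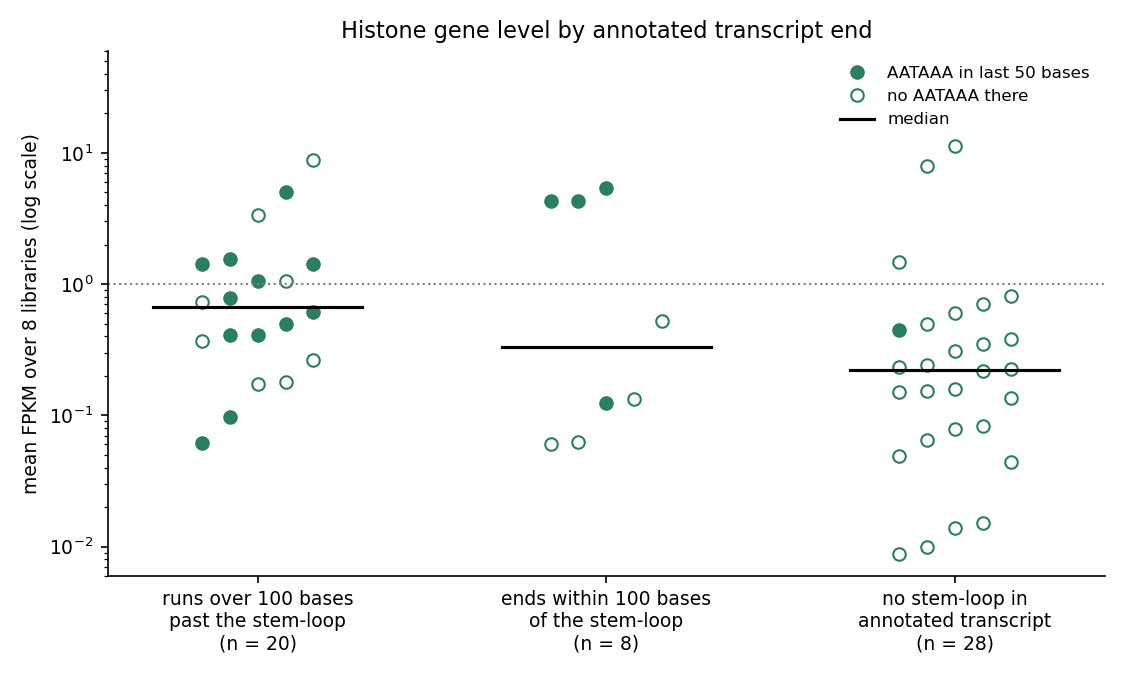
Mean FPKM over 8 libraries (log scale) of the 56 members, 1 point per gene, by the end of their GENCODE transcripts, with filled points for AATAAA in the last 50 bases, a bar at the median and a dotted line at 1 FPKM. The medians are 0.670, 0.330 and 0.220 FPKM from left to right, and HIST1H2BK at 11.4 and HIST1H1C at 8.0 FPKM stand high in the right-hand class.

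With doxycycline, 3 of the 14 tested histone genes rose and none fell. Those that rose were the linker histone gene HIST1H1C, the H2A gene HIST1H2AG and the H2B gene HIST1H2BD. Among all 11712 tested genes 10.1% were called higher and 6.2% lower. The estimates were small, between 0.03 and 0.43 in log2(FPKM + 1), a scale that understates the change of genes at a low level. All 14 estimates, from 12 distinct sets of values, were above 0, as were 57.1% of those of all tested genes. The median of the 14 was 0.19 against 0.02 over all tested genes. With quantile normalization 13 of the 14 were above 0, HIST1H3H standing at -0.018, and the median was 0.14. Leaving out 1 library put the median of the 14 between 0.10, without sh1 dox repeat 2, and 0.26, without sh1 dox repeat 1, and at 0.12 without sh1 no-dox repeat 1. In bulk RNA, more cells holding a transcript and more of it per cell cannot be told apart.

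HIST1H1C, whose product H1.2 is one of the commonest linker histones of cultured cells, had 8.82 and 8.44 FPKM in the sh1 dox libraries and 8.84 and 9.30 FPKM in the sh2 dox libraries. It had 7.70 and 7.4 FPKM in the sh1 no-dox libraries and 6.57 and 6.95 FPKM in the sh2 no-dox libraries. Every dox library was above every no-dox library. The log2 change was 0.27 with an SE of 0.04 and an adjusted p of 0.00326 (limma), and the call held with each library left out. The other 4 H1 genes averaged between 0.00875 and 0.348 FPKM and were not tested.

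HIST1H2AG, an H2A gene that faces the H2B gene HIST1H2BJ, had 2.0 and 1.48 FPKM in the sh1 dox libraries and 1.66 and 1.69 FPKM in the sh2 dox libraries. It had 1.56 and 1.54 FPKM in the sh1 no-dox libraries and 0.68 FPKM in both sh2 no-dox libraries. The groups overlapped, because 1 sh1 dox library lay below both sh1 no-dox libraries, and the lowest values were those of the sh2 line without doxycycline. The log2 change was 0.38 with an SE of 0.07 and an adjusted p of 0.00830, and leaving out each library in turn gave adjusted p values up to 0.0338.

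HIST1H2BD, an H2B gene with a stem-loop form of 496 bases and a form without it of 789 bases in the annotation, had 5.38 and 8.0 FPKM in the sh1 dox libraries and 5.29 and 6.79 FPKM in the sh2 dox libraries. It had 4.67 and 3.92 FPKM in the sh1 no-dox libraries and 4.44 and 4.57 FPKM in the sh2 no-dox libraries. Every dox library was above every no-dox library, which held for 2 of the 14 tested members, HIST1H1C and HIST1H2BD, and for 10.2% of all tested genes. The log2 change was 0.43 with an SE of 0.11 and an adjusted p of 0.0207. Its call was lost without sh1 dox repeat 2 (0.0536), sh2 dox repeat 2 (0.0653), sh1 no-dox repeat 2 (0.0648), sh2 no-dox repeat 1 (0.0735) or sh2 no-dox repeat 2 (0.0585), the adjusted p of each fit in brackets.

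The other 3 of the 4 tested H2B genes did not pass, and the 9 below 1 FPKM were not tested. HIST1H2BK had 9.98 and 13.4 FPKM in the sh1 dox libraries and 13.7 and 12.2 FPKM in the sh2 dox libraries, against 11.03 and 10.8 FPKM in the sh1 no-dox libraries and 10.1 and 9.69 FPKM in the sh2 no-dox libraries. Its log2 change was 0.21 with an adjusted p of 0.0765, and sh1 dox repeat 1 was the library that lay among the no-dox values. Without that library the log2 change was 0.31 (adjusted p 0.00703), and without sh1 dox repeat 2 it was 0.12 (adjusted p 0.192). HIST2H2BE, from the HIST2 cluster, had a log2 change of 0.21 with an adjusted p of 0.112. It was 0.29 (adjusted p 0.0454) without sh1 dox repeat 1 and 0.14 (adjusted p 0.331) without sh1 dox repeat 2. HIST2H2BF ranged from 2.62 to 4.44 FPKM in dox and from 2.22 to 4.62 FPKM in no-dox libraries, with a log2 change of 0.19 and an adjusted p of 0.350. Over the fits without 1 library that change lay between 0.06, without sh2 no-dox repeat 1, and 0.33, without sh2 no-dox repeat 2.

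Among the other tested H2A genes, HIST3H2A had 9.91 and 11.1 FPKM in the sh1 dox libraries and 9.37 and 8.60 FPKM in the sh2 dox libraries, against 5.84 and 10.6 FPKM in the sh1 no-dox libraries and 7.55 and 8.17 FPKM in the sh2 no-dox libraries. Only sh1 no-dox repeat 2 overlapped the dox values. The log2 change was 0.27 with an adjusted p of 0.173. Without that library it was 0.46 (adjusted p 0.00258), and without sh1 no-dox repeat 1, the lowest library, it was 0.08 (adjusted p 0.434). HIST1H2AC had a log2 change of 0.18 with an adjusted p of 0.394, and the copies HIST2H2AA3 and HIST2H2AA4 one of 0.11 with 0.275. For both the dox and no-dox values overlapped. Over the fits without 1 library the change of HIST1H2AC lay between 0.02, without sh1 no-dox repeat 1, and 0.34, without sh1 no-dox repeat 2. That of HIST2H2AA3 lay between 0.05, without sh2 no-dox repeat 1, and 0.17, without sh2 no-dox repeat 2.

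Nor did the tested H3 and H4 genes pass. HIST1H3H, the only H3 gene tested, ranged from 1.20 to 1.8 FPKM in dox and from 0.94 to 1.78 FPKM in no-dox libraries, with a log2 change of 0.03 and an adjusted p of 0.853. Its estimate was below 0 without sh1 dox repeat 2 (-0.042) or sh1 no-dox repeat 2 (-0.032), and also without sh2 dox repeat 1 (-0.0067) or sh2 no-dox repeat 1 (-0.00058). HIST2H4A and its copy HIST2H4B had a log2 change of 0.14 with an adjusted p of 0.447. The change lay between 0.0077 without sh2 dox repeat 1 and 0.28 without sh2 dox repeat 2. HIST1H4K had 1.79 and 2.81 FPKM in the sh1 dox libraries and 0.75 and 0.83 FPKM in the sh2 dox libraries, against 1.78 and 1.95 FPKM in the sh1 no-dox libraries, and it was listed at 0 and had 1.8 FPKM in the sh2 no-dox libraries. Its log2 change of 0.14 had a 95% interval of -0.41 to 0.69 and an adjusted p of 0.731. The adjusted p was 0.0260 without sh2 no-dox repeat 2, which leaves the value of 0 alone in its group. Without sh2 no-dox repeat 1, the library at 0, its log2 change was -0.23. HIST1H4J, an H4 gene of the same cluster with a nearly identical promoter sequence, was above 0 only in that library, at 0.99 FPKM. Whether reads of 1 of these genes were listed under the other was not tested.

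**Figure D3:**
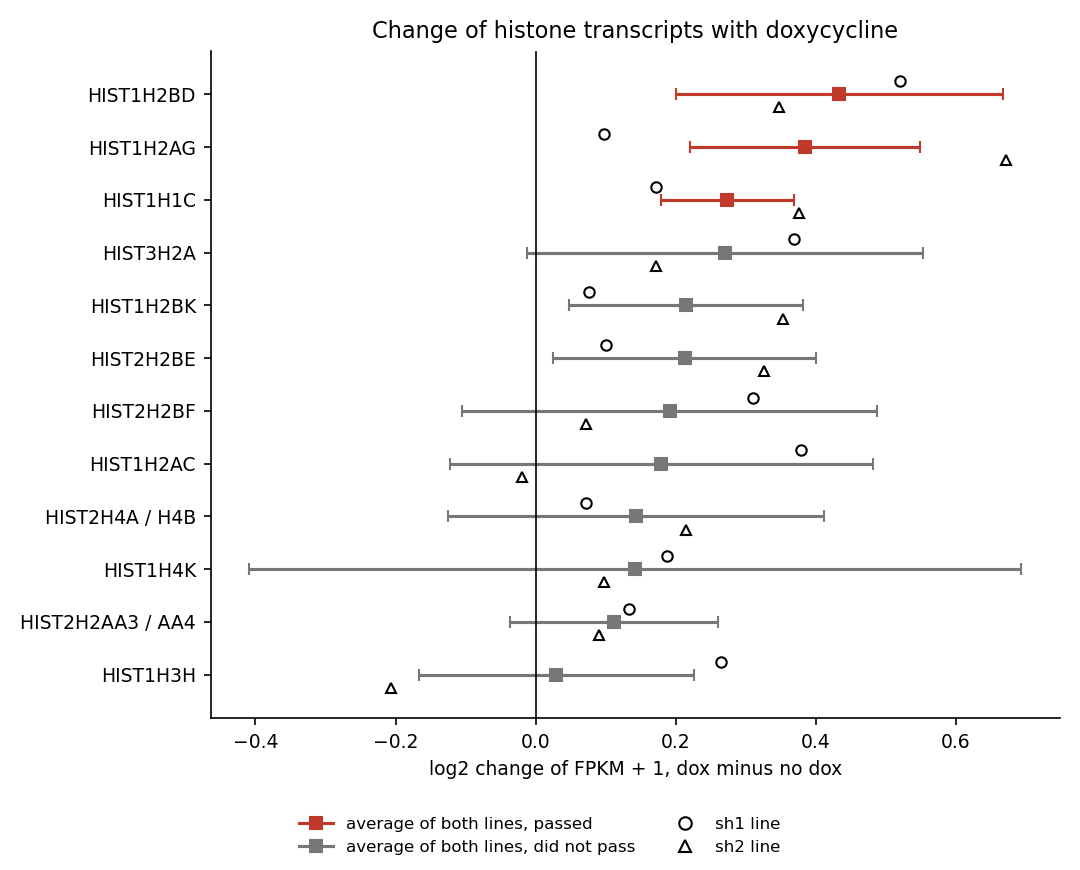
Log2 change of FPKM + 1, dox minus no dox, of the tested histone genes, with squares and 95% intervals for the average of both lines and open circles and triangles for the sh1 and sh2 lines alone. Squares run from 0.43 for HIST1H2BD to 0.03 for HIST1H3H, and red marks the 3 genes that passed the threshold over all tested genes.

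Summed over all 56 members, the level was 74.1 and 82.8 FPKM in the sh1 dox libraries and 74.6 and 75.1 FPKM in the sh2 dox libraries, against 61.3 and 67.35 FPKM in the sh1 no-dox libraries and 59.4 and 66.15 FPKM in the sh2 no-dox libraries. Each dox sum was above each no-dox sum, an order that 10.2% of all tested single genes also had. The means were 76.6 ± 4.10 FPKM with doxycycline and 63.5 ± 3.81 FPKM without it (SD, n = 4 each), a ratio of 1.21, and the copied genes were counted as often as the table lists them. This was 0.0167% to 0.0186% of all FPKM in dox and 0.0135% to 0.0153% in no-dox libraries. The 14 tested members made up 83.6% of the sum. The 5 families had similar ratios: 1.22 for H1, 1.21 for H2A, 1.20 for H2B, 1.21 for H3 and 1.19 for H4. Dox and no-dox sums did not overlap for H1 and H3, and overlapped for H2A, H2B and H4. The H1 sum was mostly HIST1H1C, with 8.85 of 9.24 FPKM in dox and 7.155 of 7.59 FPKM in no-dox libraries, so it is no separate result. In the H3 sum HIST1H3H, the only tested gene, had 1.43 of 4.99 FPKM in dox and 1.395 of 4.11 FPKM in no-dox libraries. Most of the H3 gap thus came from untested members below 1 FPKM. By cluster the ratio was 1.22 for HIST1, 1.18 for HIST2 and 1.21 for HIST3, and only the HIST1 sums did not overlap. HIST4H4, the one gene of HIST4, stood at 0.14 FPKM in 7 libraries and at 0.41 FPKM in sh1 dox repeat 1. These sums are a description with no test, and the few highest genes carry most of each.

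**Figure D4:**
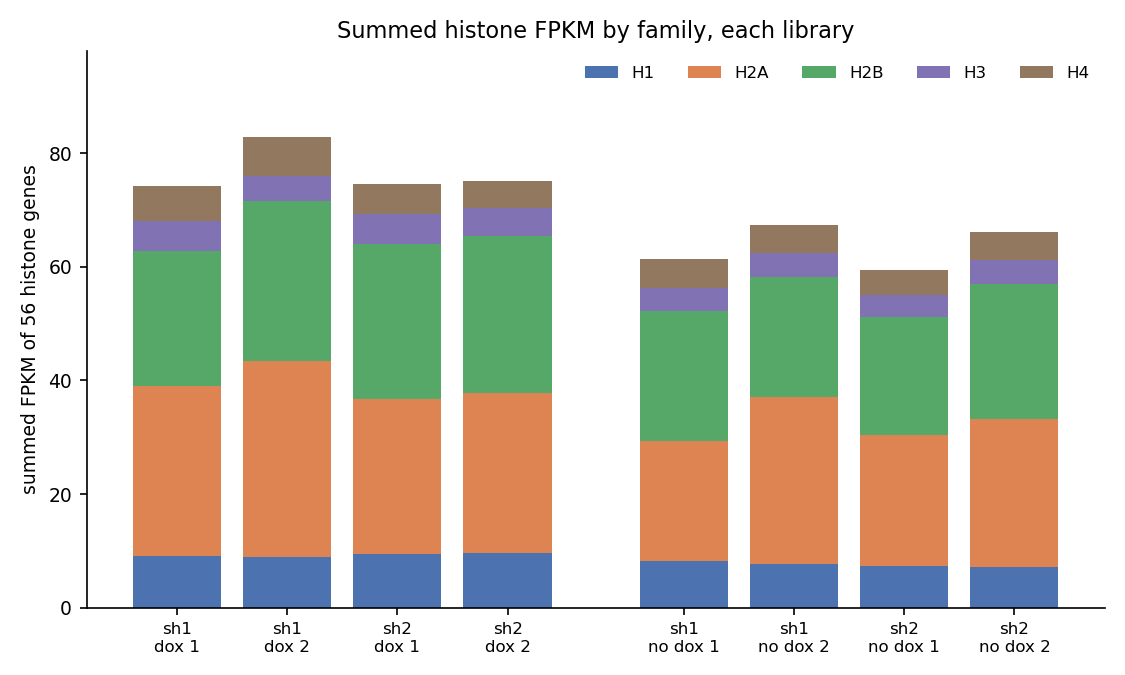
Summed FPKM of the 56 histone genes in each library, dox libraries on the left and no-dox libraries on the right, stacked by H1, H2A, H2B, H3 and H4 from the bottom. Dox sums run from 74.1 to 82.8 FPKM and no-dox sums from 59.4 to 67.35 FPKM, and H2A and H2B take most of every bar.

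In the 42 members below 1 FPKM the dox mean was higher in 30, lower in 11 and equal in 1. The same count over all genes below 1 FPKM was not made. None of the 42 was tested with the filter on low values. Their sum was 12.5 ± 1.82 FPKM in dox and 10.4 ± 0.727 FPKM in no-dox libraries, and the 2 groups overlapped. HIST2H2AC had 1.32 and 1.11 FPKM in the sh1 dox libraries and 0.38 and 1.26 FPKM in the sh2 dox libraries, against 0 and 1.08 FPKM in the sh1 no-dox libraries and 0.52 and 0.85 FPKM in the sh2 no-dox libraries. Repeats of 1 group could differ widely in such genes. HIST1H3E, for example, had 1.58 and 0.49 FPKM in the sh1 dox repeats and 0.73 FPKM in both sh1 no-dox repeats.

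The lines were then compared, since each hairpin has its own no-dox libraries. In the sh2 line HIST1H2AG rose by 0.67 in log2(FPKM + 1) with an adjusted p of 0.0124 (limma), and HIST1H1C by 0.38 with 0.0148. These were 2 of 14 tested members, where 1.38% of all tested genes were higher in that line. For HIST1H2AG that scale understates the change. Its sh2 libraries had 1.66 and 1.69 FPKM with doxycycline and 0.68 FPKM in both without it. In the sh1 line 0 of the 14 passed by limma, where 6.27% of all tested genes passed in either direction, and 2 had an unadjusted p under 0.05, HIST1H2BD at 0.52 (adjusted p 0.0647) and HIST1H1C at 0.17 (adjusted p 0.117). In the sh1 line HIST1H2BD passed without sh1 dox repeat 1, sh2 dox repeat 1 or sh2 dox repeat 2, and HIST3H2A without sh1 no-dox repeat 2. In the sh2 line HIST1H2BK also passed without either sh1 dox library. Both dox libraries lay above both no-dox libraries in 6 of the 14 members in the sh2 line and in 4 in the sh1 line, against 26.1% and 35.1% of all tested genes.

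The difference between the 2 dox effects, sh2 minus sh1, passed for 0 of the 14 members and for 0 of all 11712 tested genes (limma), while 3 members and 566 genes had an unadjusted p under 0.05. HIST1H2AG had the smallest p among the members, with a difference of 0.57, a 95% interval of 0.25 to 0.90, an unadjusted p of 0.00286 and an adjusted p of 0.855. HIST1H3H differed by -0.47, with a change of -0.21 in the sh2 line and 0.26 in the sh1 line (adjusted p of the difference 0.992). HIST1H1C differed by 0.20 (adjusted p 0.992). Without doxycycline HIST1H2AG was lower in the sh2 line than in the sh1 line, by -0.60 in log2(FPKM + 1) (limma, adjusted p 0.0241). It was the only one of 14 members to pass, where 0.623% of all tested genes were lower. The same sh2 no-dox values of 0.68 FPKM enter the averaged effect of HIST1H2AG, its sh2 effect, its line difference and this comparison. These results are therefore not separate evidence. In the sh1 line alone the change of HIST1H2AG was 0.10 with an adjusted p of 0.610 (limma). The sh2 calls were lost without sh2 dox repeat 2, sh2 no-dox repeat 1 or sh2 no-dox repeat 2, with adjusted p values of 0.0628, 0.112 and 0.0730 for HIST1H2AG and 0.0783, 0.152 and 0.0579 for HIST1H1C. The no-dox call was lost without any 1 of the 4 no-dox libraries: 0.149 and 0.164 without sh1 repeats 1 and 2, and 0.148 and 0.143 without sh2 repeats 1 and 2. In the fit without sh2 no-dox repeat 2 the 1 member called was HIST1H4K, lower in the sh2 line, where the library left to it is the one listed at 0. With no filter on low values these 3 calls were lost as well, with adjusted p values of 0.0659 for HIST1H2AG and 0.0751 for HIST1H1C in the sh2 line and 0.0970 for HIST1H2AG without doxycycline. The 1 member then called between the no-dox lines was HIST1H4A, which had 0.16 and 0.15 FPKM in the sh2 no-dox libraries and was listed at 0 in both sh1 no-dox libraries.

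Promoters are given for the 3 genes that rose in the averaged effect. Each run is the 250 bases before the RefSeq start on GRCh38.p14, 5′ to 3′ on the gene's strand: HIST1H1C chr6:26056471-26056720 on the minus strand, HIST1H2AG chr6:27132793-27133042 on the plus strand and HIST1H2BD chr6:26157871-26158120 on the plus strand. Capitals mark the CCAAT box, the TATA box in the form TATAAA and the octamer in the form ATTTGCAT. A match on the other strand stands as its reverse complement, and overlapping matches run together.
HIST1H1C: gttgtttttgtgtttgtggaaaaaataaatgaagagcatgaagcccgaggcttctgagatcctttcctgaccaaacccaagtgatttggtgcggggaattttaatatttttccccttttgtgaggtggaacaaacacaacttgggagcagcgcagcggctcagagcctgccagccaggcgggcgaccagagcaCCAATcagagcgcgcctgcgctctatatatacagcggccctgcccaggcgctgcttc
HIST1H2AG: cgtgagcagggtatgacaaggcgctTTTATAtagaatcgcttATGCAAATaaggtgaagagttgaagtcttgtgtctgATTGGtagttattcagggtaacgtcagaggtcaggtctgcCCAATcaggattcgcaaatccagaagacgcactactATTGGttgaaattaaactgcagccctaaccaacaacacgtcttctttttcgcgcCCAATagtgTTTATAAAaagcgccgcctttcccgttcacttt
HIST1H2BD: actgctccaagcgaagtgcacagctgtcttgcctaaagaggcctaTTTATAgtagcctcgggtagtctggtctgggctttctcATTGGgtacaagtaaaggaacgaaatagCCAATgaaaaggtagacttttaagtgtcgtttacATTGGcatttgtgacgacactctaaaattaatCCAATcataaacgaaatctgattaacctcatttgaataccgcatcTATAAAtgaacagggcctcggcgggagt

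The CCAAT box is read by NF-Y, the TATA box places the start of transcription, and the octamer, known from H2B promoters, is bound by Oct-1 (POU2F1). In these exact forms HIST1H1C held CCAAT alone, HIST1H2BD held CCAAT and TATAAA, and HIST1H2AG held all 3 motifs. Close to its start HIST1H1C reads tatatata, a TATA-like run that the search for TATAAA did not count. A RefSeq promoter was found for 52 of the 56 members. Searched on both strands from 250 bases before to 50 after the start, CCAAT was in 43 of the 52 (82.7%) and in 39.7% of 27305 genes. TATAAA was in 37 (71.2%) and in 14.0% of all genes, and ATTTGCAT in 19 (36.5%) and in 2.19% of all genes. The families differed: CCAAT was in every H1, H2A, H2B and H3 promoter and in 1 of 10 H4 promoters. ATTTGCAT was in 9 of 14 H2A and 9 of 13 H2B promoters, in 1 of 10 H3 promoters and in none of the 5 H1 or 10 H4 promoters. Where an H2A and an H2B gene face each other, the same letters can be counted for both. The octamer of HIST1H2AG, at -208 from its start, is also that of HIST1H2BJ, at -47 from its own. The 14 members with a mean of at least 1 FPKM held these motifs no more often, with CCAAT in 11, TATAAA in 9 and ATTTGCAT in 5. A match is a description of the letters only.

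An H2A and an H2B gene often share 1 promoter and point away from each other. Among the 52 members with a RefSeq promoter, 9 such pairs were found, with starts 194 to 248 bases apart. Pairs with a member that lacks one, such as HIST1H2AH, could not be found, so the list may be incomplete. In 4 of the pairs found 1 gene averaged at least 1 FPKM, and in none did both. HIST3H2A averaged 8.89 FPKM and its partner HIST3H2BB 0.368 FPKM, a ratio of 24.2. HIST1H2AC averaged 5.05 FPKM and HIST1H2BC 0.730 FPKM, a ratio of 6.92. The gap was smaller for HIST1H2AG at 1.41 FPKM and HIST1H2BJ at 0.444 FPKM, and for HIST2H2BE at 1.54 FPKM and HIST2H2AC at 0.815 FPKM. HIST1H2BJ, across the promoter from HIST1H2AG, had 0.32 and 0 FPKM in the sh1 dox libraries and 0.60 and 0.75 FPKM in the sh2 dox libraries, against 0.39 and 0.13 FPKM in the sh1 no-dox libraries and 0.70 and 0.66 FPKM in the sh2 no-dox libraries. Its values in the 2 sh2 groups overlapped, unlike those of HIST1H2AG.

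Genes that work with histones were set beside the members in 4 lists. Replication-independent variants replace the clustered histones outside DNA synthesis, and most carry ordinary poly(A) tails. Of 20 listed, 18 were in the table and 12 were tested: 2 rose, 0 fell, and the median log2 change was 0.06. The 2 were 16.7% of those tested, where 10.1% of all tested genes were higher, and this gap was not tested. H1FX (H1.10) rose by 0.13 with an adjusted p of 0.0249, and H2AFY2 (macroH2A2) by 0.17 with 0.0271. Over the fits without 1 library the adjusted p reached 0.108 for H1FX, lost without either sh1 dox library, sh1 no-dox repeat 1 or either sh2 no-dox library. For H2AFY2 it reached 0.0965, lost without either sh1 dox library, sh1 no-dox repeat 2 or sh2 no-dox repeat 1. H1F0 (H1.0), a linker histone of resting cells, averaged 547.7 FPKM with and 519.5 FPKM without doxycycline (adjusted p 0.116).

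Of 35 factors that transcribe, process or degrade histone messages, all were tested, 1 rose and 1 fell, with a median of -0.01. Called in either direction were 5.71% of the list and 16.3% of all tested genes. MIF4GD (SLIP1), which links SLBP to translation of histone messages, averaged 14.6 ± 1.26 FPKM with and 11.5 ± 1.09 FPKM without doxycycline (SD, n = 4 each), a log2 change of 0.32 with an adjusted p of 0.00128 in limma, kept without each library. CCNA2, cyclin A2, fell by 0.15 on the log2 scale with an adjusted p of 0.0237. That call was lost without sh1 dox repeat 2, sh2 dox repeat 2, either sh1 no-dox library or sh2 no-dox repeat 1, with an adjusted p of up to 0.0968. SLBP itself averaged 53.4 and 57.0 FPKM with and without doxycycline (adjusted p 0.195, and 0.0186 without sh2 dox repeat 1), and NPAT, which switches on histone genes, 4.45 and 4.94 FPKM (adjusted p 0.147).

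Of 30 histone chaperones, which carry histones to DNA, 0 rose and 3 fell, with a median of -0.01. The 3 were 10% of the list, where 6.2% of all tested genes were lower, and this gap was not tested. HAT1, which acetylates new H4, fell by 0.16 on the log2 scale (adjusted p 0.00914), kept without each library. SUPT16H, a subunit of FACT, fell by 0.13 (0.0210) and RBBP7 by 0.13 (0.0283). The SUPT16H call was lost without sh1 dox repeat 2, either sh1 no-dox library or sh2 no-dox repeat 1, with an adjusted p of up to 0.0854. The RBBP7 call was lost without sh1 dox repeat 2, sh2 dox repeat 2, sh1 no-dox repeat 1 or sh2 no-dox repeat 1, with up to 0.118.

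Of 42 DNA replication genes, which mark the phase in which clustered histones are made, 1 rose and 5 fell, and the median was -0.08. Called in either direction were 14.3% of the list and 16.3% of all tested genes. LIG1, a DNA ligase, rose by 0.10 (adjusted p 0.0442). RFC1 fell by 0.16 (0.0172), RFC5 by 0.20 (0.0182), MCM10 by 0.20 (0.0289), GINS2 by 0.13 (0.0337) and POLE by 0.10 (0.0443). The count was 14, all lower, without sh2 dox repeat 1 and 0 without sh1 dox repeat 2 or sh2 no-dox repeat 1. With TMM factors 0 were higher and 10 lower. The median was -0.04 without sh2 dox repeat 2 and -0.05 without sh1 dox repeat 2. The LIG1 call was lost without any 1 of the 8 libraries, and the POLE call without any but sh2 dox repeat 1. Calls of RFC1, RFC5, MCM10 and GINS2 were lost in 4, 3, 6 and 6 of these 8 fits, each time including those without sh1 dox repeat 2 and without sh2 no-dox repeat 1, with adjusted p values of up to 0.0739 for RFC1, 0.0715 for RFC5, 0.1004 for MCM10 and 0.123 for GINS2. Over all 42 genes 33 estimates were below 0, while those of all 14 tested clustered histone genes were above 0, with the exceptions under other settings given for HIST1H3H and HIST1H4K.

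**Figure D5:**
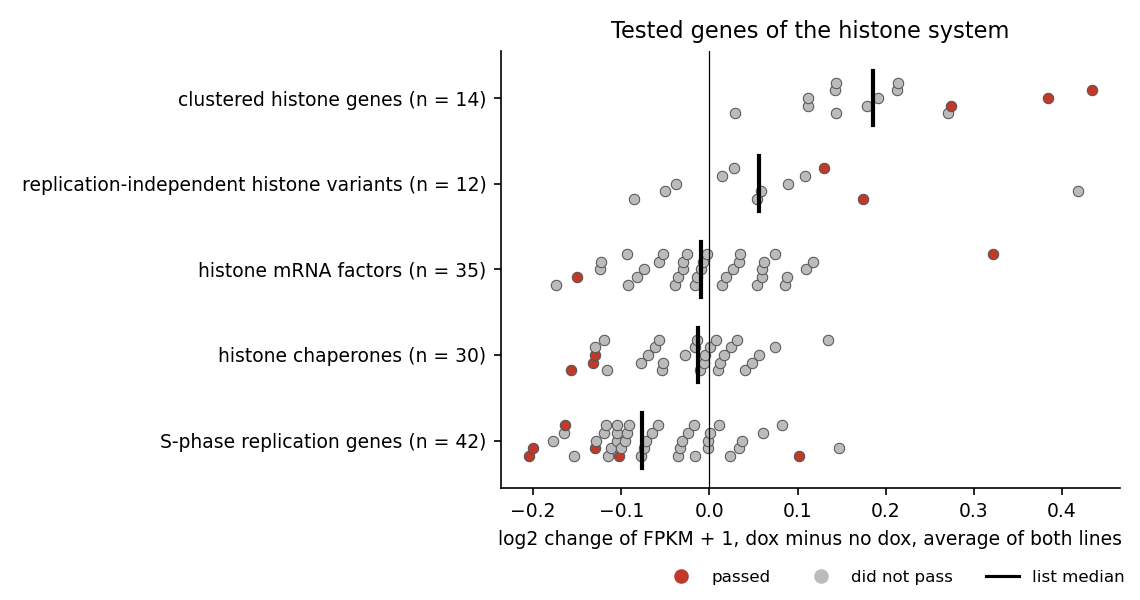
Log2 change of FPKM + 1, dox minus no dox, averaged over both lines, for the tested genes of each list, 1 point per gene, red where the threshold was passed and with a bar at the list's median. The medians are 0.19 for the clustered histone genes, 0.06 for the variants, -0.01 for the message factors and for the chaperones, and -0.08 for the DNA replication genes.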

How the data were processed

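The authors deposited FPKM, a level per transcript length and library size, for 17166 genes in 8 libraries. HISAT, Bowtie2 and build hg19 are named in the submitters' processing notes, with no roles or versions. The sources used here do not name the quantifier, the strand setting or the annotation. The table names the second hairpin sh3, taken as sh2 by elimination. The labels' source description calls all samples induced, and groups follow the titles. Dates in place of 27 symbols were restored from Entrez identifiers, of which 17131 matched RefSeq.

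Genes averaging 1 FPKM or more were fitted in limma 3.58.1 (R 4.3.3) on log2(FPKM + 1) with 1 mean per group (4 residual degrees of freedom), a trend in the moderation, two-sided p-values and adjustment by Benjamini-Hochberg across 11712 genes. The steps were tested on simulated data. There were 5 comparisons: the averaged dox effect, the effect in each line, their difference and the lines without doxycycline. p-values measure the spread between these repeats. Alternatives were a pseudocount of 0.1, no filter, quantile normalization, TMM factors (trimmed means of log ratios, computed on FPKM), no trend, the replicate block and each library left out, where the lone repeat is assumed to vary like the other groups.

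Members and lists were chosen with earlier results of these data known. Named members were the 6 highest, the 8 with the smallest p in the averaged effect (3 passed), those passing in another comparison and the 3 either side of 1 FPKM. Lists are named by up to 5 of the smallest p. HIST1H3A, HIST1H4A, HIST2H2BF, HIST1H3H, HIST1H4J, HIST1H4K, HIST1H2BJ, HIST3H2BB, HIST4H4, POLE, SLBP, NPAT, H2AFZ and H3F3B were added after their values were seen. Stem-loops came from GENCODE release 29 and promoters from RefSeq (GRCh38.p14). Figures used matplotlib 3.10.9 under Python 3.11.15.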

Additional observations from a re-analysis of the deposited data

Results flagged for a closer look

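Of 32 groups of 4 libraries, 2 had a library far from the other 3, where chance gives about 1 in 20. HIST1H4K was listed at 0 in sh2 no-dox repeat 1, while the other 3 no-dox libraries had 1.78, 1.95 and 1.8 FPKM. That was a gap of 0.913 of the range, above Dixon's critical value for 4 libraries. The similar gene HIST1H4J was above 0 in that library alone, at 0.99 FPKM, and how reads were shared between the 2 genes is unknown. The summed level of all members was 82.77 FPKM in sh1 dox repeat 2, while the other 3 dox libraries had 74.12, 74.61 and 75.08 FPKM, a gap of 0.889 of the range. All 4 dox sums were above the highest no-dox sum of 67.35 FPKM, an order that 10.2% of all tested single genes also had.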

How the results depend on the processing

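With a pseudocount of 0.1, quantile normalization, TMM factors, no trend or the replicate block, the averaged dox effect called the same 3 members, HIST1H1C, HIST1H2AG and HIST1H2BD. With no filter on low values it called 3 as well, but HIST1H2BD was lost (adjusted p 0.0981) and HIST1H3A passed. Leaving out each library gave 2 to 5 members. In the sh1 line the replicate block gave 1 member, HIST1H2BD, and leaving out libraries 0 to 1. In the sh2 line no filter gave 0, and leaving out libraries 0 to 3. Ranges without 1 library were 0 to 0 for the difference of dox effects, 0 to 1 for the lines without doxycycline and 851 to 2356 for all tested genes, against 1906 with all libraries and 1021 with no filter. Counts for the variants were 0 with no filter, 1 with TMM factors, 0 with no trend and 0 to 3 without 1 library. Same-numbered repeats of different groups deviated together at r = -0.03 to 0.22, and the main fit did not pair them. With the replicate block, which does, 2684 of all tested genes were called against 1906, so this choice mattered for that count. The counts of the other lists follow. For the message factors they were 1 with no filter, 1 with no trend, 4 with the replicate block and 1 to 5 without 1 library. For the chaperones they were 1 with no filter, 5 with quantile normalization, 1 with no trend, 5 with the replicate block and 1 to 5 without 1 library. For the DNA replication genes they were 3 with no filter, 10 (all lower) with TMM factors, 2 with no trend, 18 (16 of them lower) with the replicate block and 0 to 14 without 1 library. The share of all calls that were higher was 61.9% as deposited, 50.3% with quantile normalization and 47.2% with TMM factors, and the 3 member calls were higher in each. Over single genes named in the text, 442 alternative values kept their side of the threshold, 94 lost the call, 18 gained it and 6 changed sign. The sign changes were HIST1H3H with quantile normalization (-0.018) and over the fits without 1 library (-0.042 to 0.1001), and HIST1H4K without sh2 no-dox repeat 1 (range -0.23 to 0.51). Where an alternative changed a call, the cause was not tested. The depth behind FPKM is unknown, so no floor could be set for values of 0, and polyA selection limits what these libraries show of histone messages that end at the stem-loop.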
